A study of Homo sapiens with 38 samples.

Results

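The small nucleolar RNA (snoRNA) host genes are genes whose main recorded role is to carry snoRNAs in their introns. The set was taken from gene symbols alone, as every gene named SNHG followed by a number plus GAS5, ZFAS1 and EPB41L4A-AS1, which gave 31 of the 58425 genes with a quantified transcript. They were followed in HCT116, a human colorectal cancer cell line, with its argonaute genes intact (wild type, WT) or edited. Argonaute (AGO) proteins bind small RNAs and pair with target transcripts, and the study asked where AGO2 binds nuclear RNA and how splicing differs in lines without these proteins. The edited lines were an AGO1 knockout (passages 6, 7 and 8), an AGO2 knockout (passages 8, 9 and 10), an AGO1/2 knockout (passages 9, 10 and 11) and an AGO1/2/3 knockout (passages 11, 12 and 14), set against wild type at passages 27, 28 and 29. Each of the 5 genotypes gave 3 nuclear and 3 cytoplasmic libraries of ribosomal-RNA-depleted total RNA, 30 in all. Each genotype was 1 line, so that line, passage and genotype cannot be told apart, and p-values measure only the spread between these libraries. Libraries are named below by passage. In bulk RNA, a change in how many cells express a gene and a change in RNA per cell cannot be told apart.

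A host gene is transcribed and spliced like other genes, and the snoRNA is trimmed out of the excised intron rather than made from its own promoter. Box C/D snoRNAs guide methylation of ribosomal RNA and other RNAs, box H/ACA snoRNAs guide pseudouridylation, and small Cajal body RNAs (scaRNAs) guide the same changes on spliceosomal RNAs. The joined exons of many host genes have no long open reading frame and are exported and then degraded during translation by nonsense-mediated decay, so that host gene levels depend on transcription, splicing, export and decay together. Several of these genes, GAS5 among them, are 5′ terminal oligopyrimidine genes, whose transcripts begin with a C and a run of pyrimidines, a feature shared with ribosomal protein messages.

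Of the 31 host genes, 30 held at least 1 annotated snoRNA gene, 12 with box C/D snoRNAs only, 10 with box H/ACA snoRNAs only and 4 with scaRNAs only. They carried 150 snoRNA genes, of which 83 lay in SNHG14 and 67 in the others. GAS5 (growth arrest specific 5, hg38 chromosome 1, 173858559 to 173868882, minus strand) held 11, of which 10 were box C/D. SNHG1 (chromosome 11, 62851978 to 62855953, minus) held 9. ZFAS1 (chromosome 20, 49278178 to 49299600, plus) held SNORD12, SNORD12B and SNORD12C. EPB41L4A-AS1 (chromosome 5, 112160526 to 112164818, plus) held SNORA13. SNHG29 (chromosome 17, 16438767 to 16480249, plus) held SNORD49A, SNORD49B and SNORD65, and SNHG16 (chromosome 17, 76557727 to 76670985, plus) held SNORD1A, SNORD1B and SNORD1C. SNHG4 (chromosome 5, 139274102 to 139284899, plus) held SNORA74A and SNORA74D. Same-strand overlaps with other genes were annotated for 11 members, including SNHG4 with MATR3, SNHG3 with RCC1 and SNHG20 with SEC14L1, and reads of these pairs could be split between them by the quantification.

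The snoRNAs themselves show what these introns encode. One is printed for each of 4 hosts followed below (hg38 coordinates, RefSeq annotation, 5′ to 3′), with capitals for box C (TGATGA within the first 20 bases) and box D (CTGA within the last 15) of a C/D snoRNA, or for the ACA within the last 8 bases of an H/ACA snoRNA.
SNORD44 (GAS5, chr1:173865968-173866028, minus): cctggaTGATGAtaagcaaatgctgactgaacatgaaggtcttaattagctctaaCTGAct
SNORD25 (SNHG1, chr11:62855565-62855631, minus): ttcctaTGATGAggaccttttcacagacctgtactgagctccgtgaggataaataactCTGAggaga
SNORD12C (ZFAS1, chr20:49278945-49279023, plus): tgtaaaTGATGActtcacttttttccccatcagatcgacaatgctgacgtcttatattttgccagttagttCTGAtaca
SNORA13 (EPB41L4A-AS1, chr5:112161485-112161617, plus): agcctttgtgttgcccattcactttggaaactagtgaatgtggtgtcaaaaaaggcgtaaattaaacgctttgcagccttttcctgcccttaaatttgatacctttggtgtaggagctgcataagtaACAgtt
Of the 38 box C/D snoRNAs hosted outside SNHG14, 25 held both boxes in these exact letters, and 20 of 22 box H/ACA snoRNAs held the ACA.

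The starts of the hosts are shown because the pyrimidine run is the sequence feature the family is known for. Each window (RefSeq start on GRCh38.p14, 5′ to 3′) has 10 bases before the start base and 20 from it on. Capitals mark a run of at least 5 pyrimidines (C or T, read on the gene's strand) that begins with C at the start base, or the start base alone where there was no such run.
SNHG4 (chr5:139274091-139274120, plus): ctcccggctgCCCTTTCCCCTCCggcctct
SNHG12 (chr1:28581854-28581883, minus): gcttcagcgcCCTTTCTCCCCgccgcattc
SNHG5 (chr6:85678714-85678743, minus): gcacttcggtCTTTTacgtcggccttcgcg
ZFAS1 (chr20:49278632-49278661, plus): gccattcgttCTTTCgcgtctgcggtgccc
SNHG19 (chr16:2155339-2155368, minus): ccgcccctgtCTTTTCggggtcgagtccga
GAS5 (chr1:173869026-173869055, minus): tcatgaattcAgatgtgtttattttggagc
SNHG1 (chr11:62855866-62855895, minus): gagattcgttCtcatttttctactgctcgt
EPB41L4A-AS1 (chr5:112160516-112160545, plus): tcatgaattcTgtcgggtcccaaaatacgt
SNHG29 (chr17:16438977-16439006, plus): ccttttgtgaGgattgggatattccgactc
A window was found for 27 of the 31 members, and 7 of the 27 (25.9%) began with the run, against 4.07% of all 35116 promoters in the same table. With the start allowed to lie up to 5 bases to either side, the shares were 44.4% and 21.1%. A match is a description of letters at the annotated start, and an annotated start can differ from the start used in these cells.

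Across the series, libraries held 20431557 to 79731793 estimated reads over all quantified transcripts, and replicate libraries of a group correlated at 0.977 to 0.993 across genes. The cytoplasmic AGO1 level averaged 12.9 TPM (a level per unit of transcript length, as a share of the library) in wild type and 0.886 in the AGO1 knockout line. AGO2 RNA was 36.0 in wild type and 18.5 in the AGO2 knockout line, and AGO3 RNA (8.39 in wild type, 8.64 in the AGO1/2/3 knockout line) did not mark the AGO3 edit. Between 5 and 6 of 9 colon carcinoma markers exceeded 1 TPM in each library, against 0 to 1 of 10 markers of other cell types. The wild-type passage 29 libraries stood apart from passages 27 and 28 for several host genes. In the cytoplasm passage 29 was high for GAS5, ZFAS1, SNHG1, SNHG8, SNHG32 and EPB41L4A-AS1, and in the nucleus it was low for SNHG1, SNHG4, SNHG5 and SNHG12. Counts are therefore also given without it where they moved.

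In wild-type nuclei the most abundant host gene per unit length was GAS5 at 418 ± 47.8 TPM (SD, n = 3), followed by SNHG29 at 315 ± 10.6 and SNHG1 at 249.9 ± 55.0. The libraries of these 3 did not overlap, and the next group, SNHG3, ZFAS1, SNHG8 and SNHG5, had means of 125 to 134 TPM with overlapping libraries. In wild-type cytoplasm SNHG29 led at 503 ± 38.5 TPM, ahead of SNHG6 (193 ± 3.40), SNHG16 (192 ± 16.5), ZFAS1 (166 ± 44.4) and GAS5 (137 ± 61.0). SNHG1 ranked lower in the cytoplasm, at 53.9 ± 13.1 TPM. Averaged over all 30 libraries, 26 members exceeded 1 TPM and 21 reached 10. For tests, 27 members passed the filter on low counts. The 4 that did not were SNHG18 (0 reads in all libraries), SNHG27 (at most 2 reads), SNHG14 (0 to 7 reads) and SNHG28 (0 to 12.8 reads). SNHG14, the host of the imprinted snoRNA clusters of chromosome 15, thus gave too few reads for a comparison, as did the 83 snoRNA genes it carries.

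Nuclear and cytoplasmic wild-type RNA were compared to ask where the hosts are found, with both fractions scaled together by trimmed mean of M values (TMM) and tested by edgeR's quasi-likelihood test, in which a gene was called if its p, adjusted by the Benjamini-Hochberg procedure, was at most 0.05. Of the 27 tested, 18 were higher in the nuclear libraries and 6 in the cytoplasmic ones, where 39.6% and 37.3% of all 20104 genes were called. SNHG22, a scaRNA host, had nuclear values of 24.8, 26.3 and 34.2 CPM (read counts scaled to library size) and cytoplasmic values of 0.883, 0.847 and 0.636. The groups were far apart, with a log2 difference of 5.17 (SE 0.15, adjusted p = 9.37e-20). SNHG26 had 21.4, 23.9 and 18.1 CPM in nuclei and 2.19, 1.83 and 1.41 in cytoplasm (3.55, SE 0.15, adjusted p = 1.05e-16). SNHG12 was at 72.1 to 124 CPM against 15.3, 16.1 and 13.7 (2.83, SE 0.15, adjusted p = 4.01e-15), the lowest nuclear value being passage 29.

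At the other end stood SNHG16, which hosts the SNORD1 family, with 222, 218 and 201 CPM in nuclei and 676, 631 and 620 in cytoplasm (-1.59, SE 0.087, adjusted p = 1.01e-14). SNHG6, the SNORD87 host, had 37.8, 36.4 and 39.8 against 86.7, 84.5 and 98.7 (-1.24, SE 0.080, adjusted p = 2.52e-13). SNHG9 had 3.48, 2.83 and 2.30 against 7.80, 6.88 and 4.64 (-1.16, SE 0.18, adjusted p = 1.7e-06). For all 3 the fractions did not overlap. GAS5, which was higher in nuclei, had 344, 358 and 292 CPM there and 70.4, 70.5 and 146 in cytoplasm (1.79, SE 0.17, adjusted p = 7.75e-10), and SNHG1 behaved alike (1.76, SE 0.15, adjusted p = 3.62e-11). ZFAS1 (-0.85, SE 0.12, adjusted p = 5.52e-07) and SNHG29 (-0.71, SE 0.078, adjusted p = 7.77e-09) were higher in cytoplasm. SNHG8, SNHG31 and SNHG32 were not called. The median of the 27 host genes was 0.77, beside 0.04 for all genes.

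The split depended on how transcript length was treated. With counts scaled by transcript length, 12 members were called higher in nuclei and 8 in cytoplasm, and on log2(TPM + 1), where the median of all genes stood at 0.29, 18 and 5. On that TPM scale 11516 of the 20104 genes were called higher in nuclei and 3793 in cytoplasm. EPB41L4A-AS1 changed direction, from 1.41 (SE 0.15, adjusted p = 6.24e-09) on counts to -1.01 on length-scaled counts. In the AGO1 knockout line 20 members were called higher in nuclei and 7 in cytoplasm (40% and 34.5% of all genes), and in the AGO2 knockout line 18 and 6 (39.8% and 33.6%), or 12 and 8 on length-scaled counts. For the AGO1/2 knockout line the numbers were 11 and 8 (36.9% and 31.6%), or 9 and 13 on length-scaled counts. On log2(TPM + 1) they were 19 and 4 (14310 and 974 of all genes). They were 16 and 8 (36.1% and 34.1%) with AGO1, AGO2 and AGO3 edited, or 10 and 11 on length-scaled counts. On log2(TPM + 1) that line had 18 and 5 (11719 and 2116 of all genes).

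The annotated transcripts of a host differ in whether the snoRNA lies in an intron or inside an exon. Among the 272 quantified transcripts of the members, 91 from 19 members held inside an exon a snoRNA that other transcripts of the same gene have in an intron, which makes such a transcript unspliced at that place or differently spliced. GAS5 nuclei had 90.7%, 91.5% and 81.3% of the gene's TPM on such transcripts, and the cytoplasm 22.1%, 22.7% and 7.80%. SNHG29 had 59.2%, 59.3% and 53.9% in nuclei and 11.1%, 10.6% and 12.4% in cytoplasm. SNHG6 had 30.2%, 31.4% and 23.1% against 0.51%, 0.40% and 0.33%. In each of these hosts the 2 fractions were far apart. The ratio of snoRNA-containing to other transcripts was tested with limma in 74 host genes of any kind that had both forms, 18 of them members. In wild type it was higher in nuclei for 16 members and lower for 1, SNHG3 (-0.31), where 90.5% and 2.7% of the 74 were called. The nuclear against cytoplasmic log2 ratio was 5.32 for GAS5, 5.46 for ZFAS1 and 6.41 for SNHG6. Short-read quantification assigns reads shared by such transcripts by a model, and the part of reads from excised introns or mature snoRNAs in these shares was not tested.

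**Figure D1:**
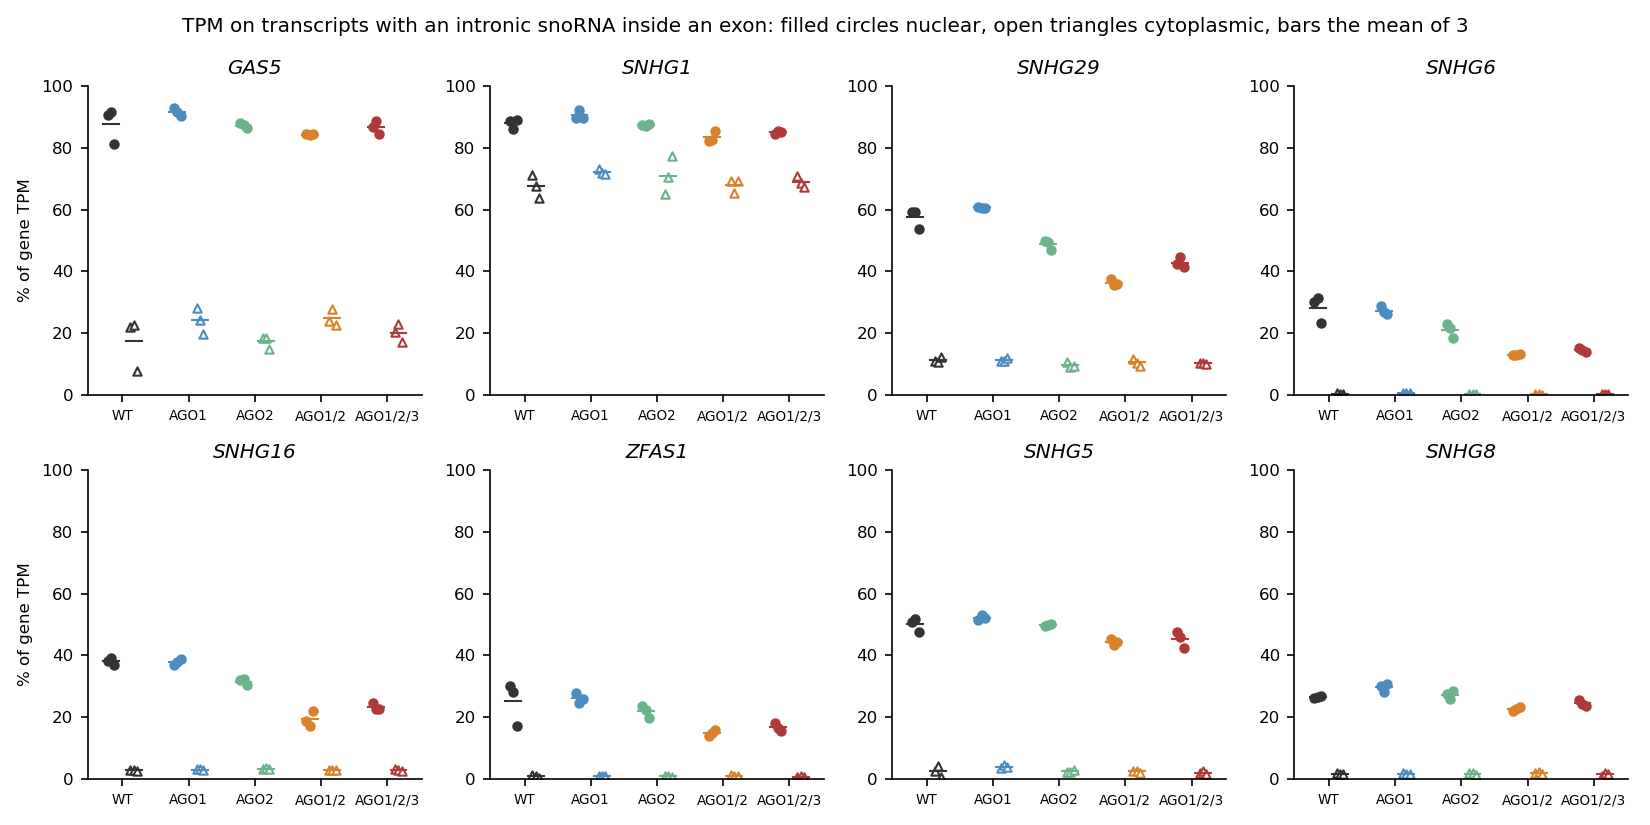
Percent of each gene's TPM on transcripts that hold inside an exon a snoRNA that other transcripts of the gene have in an intron (vertical axis, 0 to 100%), by genotype, for 8 host genes. Filled circles are nuclear libraries, open triangles cytoplasmic libraries and bars the mean of 3. GAS5 and SNHG1 were above 80% in all nuclear groups. SNHG29, SNHG6 and SNHG16 sat lower in AGO1/2 and AGO1/2/3 knockout nuclei than in wild type. ZFAS1 averaged lower in both, but its AGO1/2/3 knockout libraries overlapped wild type, where passage 29 was at 17.3%.

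Leaving these transcripts out of the sums, a choice made after the data were seen, changed which fraction several hosts favoured. Of the members, 12 were then called higher in wild-type nuclei and 10 in cytoplasm (39.6% and 37.2% of all genes), and the median fell from 0.77 to 0.22. GAS5 turned from 1.79 to -1.77 (SE 0.27, adjusted p = 1.9e-06). SNHG1 went from 1.76 to 0.26 and was no longer called (adjusted p = 0.327). SNHG7 and SNHG15 turned to -1.23 and -0.74. SNHG22 and SNHG26, among other members, had no transcript that this step left out, so it could not change them. SNHG22 had 99.6% of its TPM on a transcript with SCARNA17 in an exon, but SCARNA17 was not counted as an intronic snoRNA, so that this transcript was kept.

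**Figure D2:**
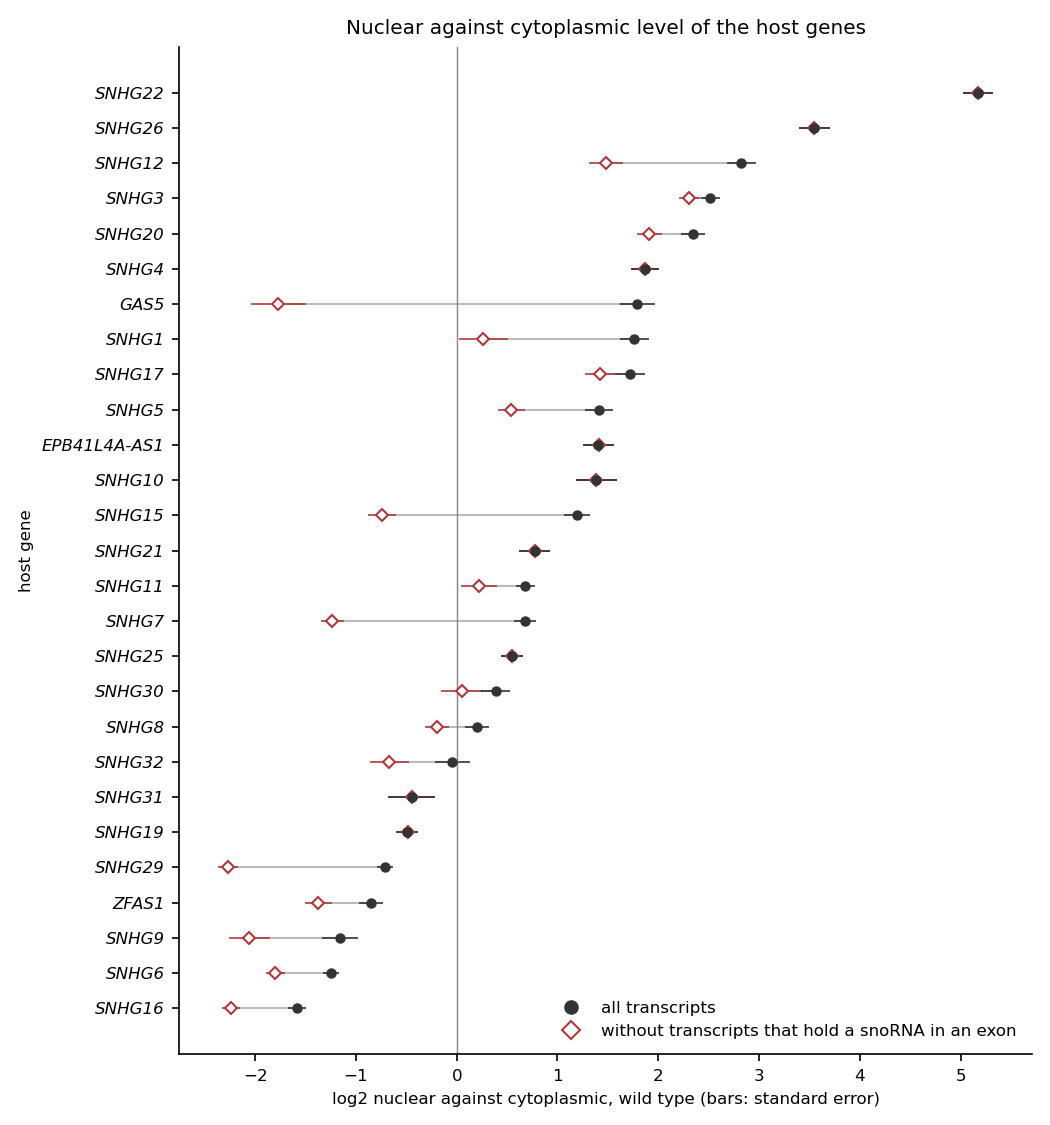
Log2 nuclear against cytoplasmic level in wild type (horizontal axis) of the 27 tested host genes (rows), with standard errors as bars. Filled circles use all transcripts, and open diamonds leave out those that hold an otherwise intronic snoRNA in an exon. SNHG22 lay farthest to the nuclear side at 5.17, and GAS5 moved from 1.79 to -1.77.

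Nearly the whole set was lower in AGO1/2 knockout nuclei. Of the 27 tested, 25 fell and 0 rose in the AGO1/2 knockout, where 34.7% of all 18919 genes fell and 32.9% rose, with a median log2 change of -0.73 among the members and -0.06 among all genes. SNHG6 and SNHG16 were not called. Relative to the median of all genes, 25 members lay below it on counts and 24 on log2(TPM + 1). All 8 comparisons with wild type in this report share the same 3 control libraries within a fraction. EPB41L4A-AS1, the antisense neighbour of EPB41L4A, had 55.4, 49.9 and 41.7 CPM in wild type and 23.7, 23.2 and 21.5 in the AGO1/2 knockout (-1.11, SE 0.10, adjusted p = 1.85e-07). GAS5 had 394, 408 and 348 in wild type and 232, 227 and 224 in the knockout (-0.75, SE 0.073, adjusted p = 3.41e-07). SNHG1 had 355, 366 and 285 against 188, 192 and 169 (-0.87, SE 0.093, adjusted p = 8.49e-07). None of the 3 overlapped between the groups, and the knockout libraries were close to each other.

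ZFAS1, the SNORD12 family host, had a smaller change, from 69.1, 72.6 and 74.2 to 54.1, 57.0 and 56.5 CPM (-0.36, SE 0.050, adjusted p = 1.25e-05). SNHG29, the most abundant member over the series, went from 356, 371 and 404 to 304, 312 and 317 (-0.28, SE 0.060, adjusted p = 0.000825), but was not called on TPM (-0.09) or on length-scaled counts. Both groups were still clear of each other. The largest fall was in SNHG31, a member close to the detection limit, from 1.48, 1.30 and 0.809 to 0.560, 0.356 and 0.328 (-1.53, SE 0.29, adjusted p = 0.000286). SNHG4 fell from 44.7, 38.9 and 26.7 to 14.7, 15.6 and 14.7 (-1.30, SE 0.13, adjusted p = 4.6e-07). SNHG25, which holds SNORA50C and SNORD104, fell less than EPB41L4A-AS1, from 9.65, 8.41 and 10.0 to 4.66, 4.70 and 5.08 (-0.96, SE 0.098, adjusted p = 5.82e-07). Of the members that fell, SNHG5 and SNHG7 alone had wild-type and knockout libraries that overlapped, and SNHG7 (-0.28) turned to 0.05 on log2(TPM + 1) and to 0.13 on length-scaled counts, neither called. SNHG16 was at 252, 281 and 229 beside 255, 249 and 239 in wild type (0.04, SE 0.068, adjusted p = 0.649), and SNHG6 at 42.0, 45.7 and 43.9 beside 43.3, 41.4 and 47.4 (-0.01, SE 0.067, adjusted p = 0.952).

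In AGO1/2/3 knockout nuclei 22 of the 27 fell and 0 rose (29.5% and 29.1% of all genes), with a median of -0.49 beside -0.03. SNHG6, SNHG7, SNHG9, SNHG16 and SNHG29 were not called. EPB41L4A-AS1 had 28.9, 28.8 and 23.8 CPM (-0.85 against wild type, adjusted p = 4.05e-06), and SNHG4 had 17.8, 18.0 and 15.8 (-1.10, SE 0.13, adjusted p = 3.71e-06). GAS5 had 272, 293 and 238 (-0.52, adjusted p = 2.17e-05), and SNHG1 had 215, 219 and 177 (-0.72, SE 0.093, adjusted p = 9.24e-06). Every one of these lay below its wild-type libraries. SNHG12 had 74.8, 77.8 and 61.0 against 142, 140 and 86.0 (-0.79, adjusted p = 0.000191), and SNHG31 had 0.333, 0.209 and 0.378 (-1.96, SE 0.31, adjusted p = 6.79e-05). ZFAS1 at 59.3, 60.7 and 57.9 fell by 0.28 (SE 0.050, adjusted p = 0.000217). SNHG29 at 377, 381 and 354 was not called (-0.02, SE 0.060, adjusted p = 0.751). The 2 lines were not tested against each other.

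**Figure D3:**
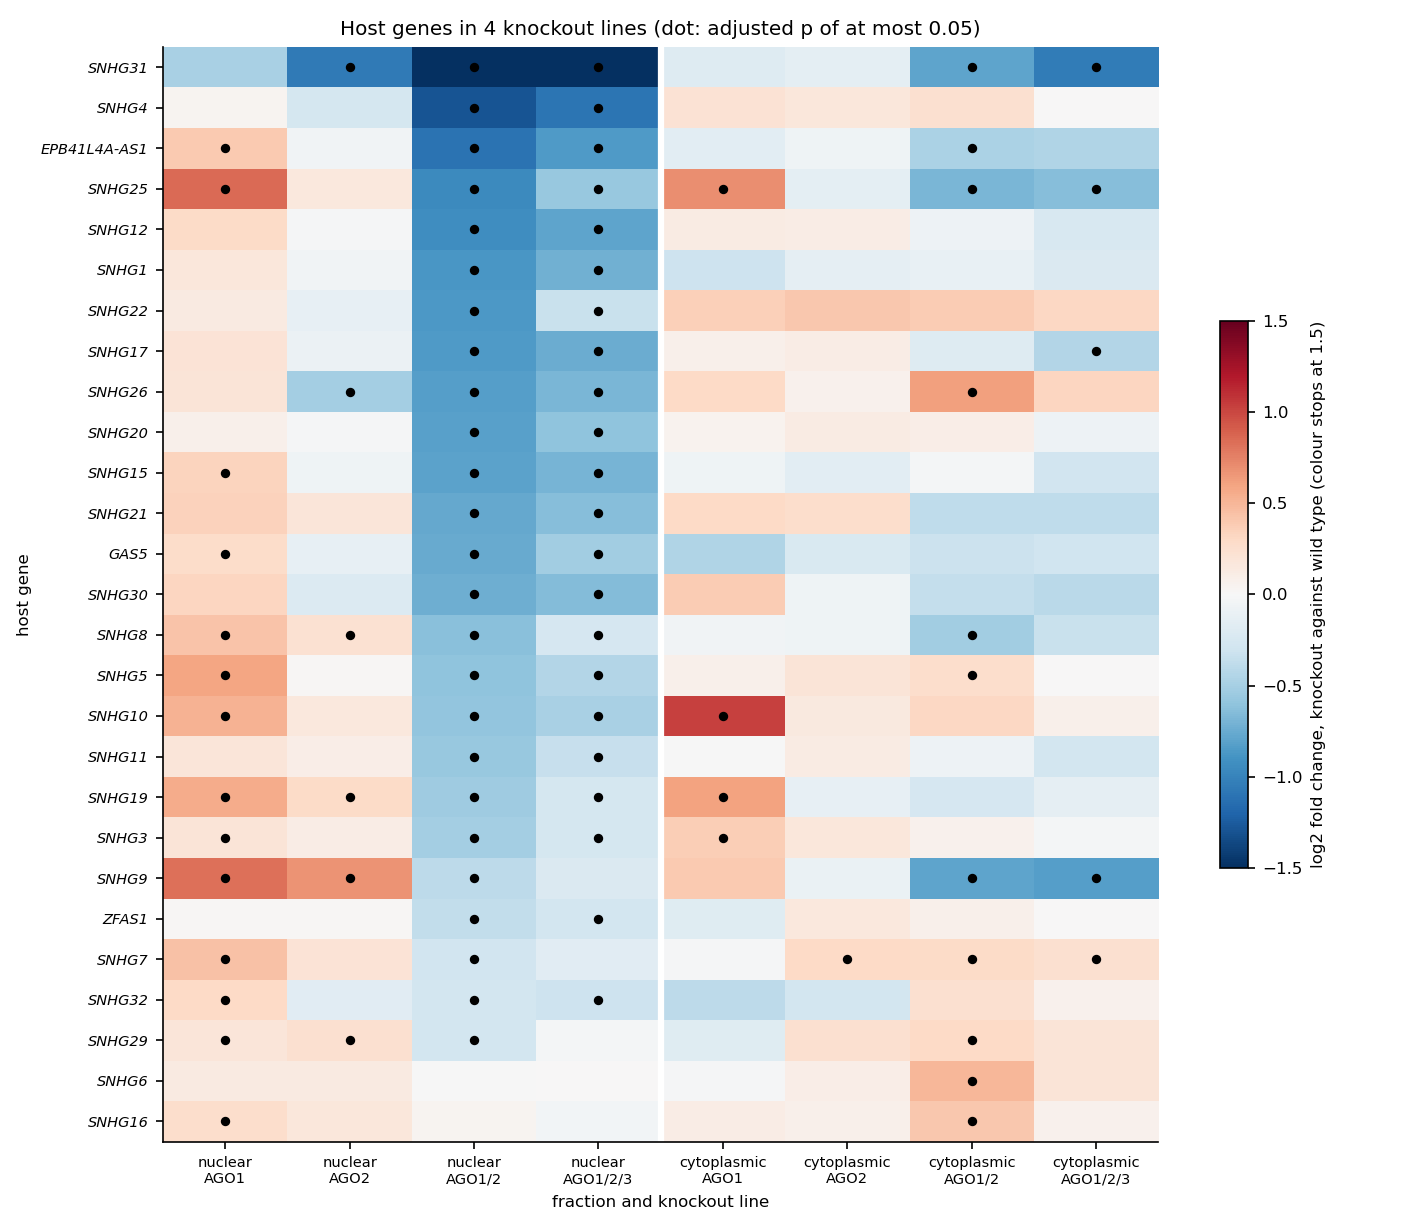
Log2 fold change against wild type (colour, which stops at 1.5 either way) of the 27 tested host genes (rows) in 4 knockout lines, nuclear on the left and cytoplasmic on the right, with a dot at an adjusted p of at most 0.05 (edgeR). The nuclear AGO1/2 and AGO1/2/3 columns hold 25 and 22 dots, all on falls, and the nuclear AGO1 column holds 14, all on rises.

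The pyrimidine run at the annotated start was set beside the falls in AGO1/2 knockout nuclei. Of the tested members, 6 had the run and all 6 fell, at -1.30 to -0.28, with a median of -0.57. Without the run, 16 of 17 fell, at a median of -0.75 over the 17, and SNHG16 (0.04) was not called. The other 4 tested members had no window, and 3 of them fell. Among all genes 34.7% fell, and the groups with and without the run were not tested against each other.

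Members were also grouped by where their RNA was found in the AGO1 and AGO2 lines, which are not part of the AGO1/2 and AGO1/2/3 comparisons. Genes with a mean log2 nuclear against cytoplasmic difference above 1 were called nuclear-enriched, those below -1 cytoplasm-enriched, and the rest lay between. The classes rest on counts of all transcripts, not scaled by transcript length, and were not formed in another way. In wild type, EPB41L4A-AS1 changed direction on length-scaled counts, and GAS5 without snoRNA-containing transcripts. Both are in the nuclear-enriched class here. All 13 nuclear-enriched members fell in AGO1/2 knockout nuclei, where 68.4% of the 5397 nuclear-enriched genes did, and the medians were -0.82 and -0.93. All 11 members in between fell, where 24.5% of 11361 genes did, with a median of -0.54 for the members beside 0.12 for the class. Every member is annotated as a long noncoding RNA gene. Of the 947 such genes in this class, 35.7% fell, at a median of -0.35. Of the 3 cytoplasm-enriched members, SNHG31 fell and SNHG6 and SNHG16 did not, where 4.26% of 2161 genes fell, with medians of -0.01 and 0.58. Among long noncoding RNA genes, 67.7% of the nuclear-enriched and 9.09% of the cytoplasm-enriched ones fell, at medians of -0.94 and 0.15. The same classes in the AGO1/2/3 knockout gave 13 of 13 members (53.3% of genes; medians -0.69 and -0.66), 8 of 11 (22.9%; -0.28 and 0.09) and 1 of 3 (5%; -0.04 and 0.42). Of the long noncoding RNA genes of these classes, 51.0%, 24.6% and 7.95% fell, at medians of -0.67, -0.19 and 0.29.

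**Figure D4:**
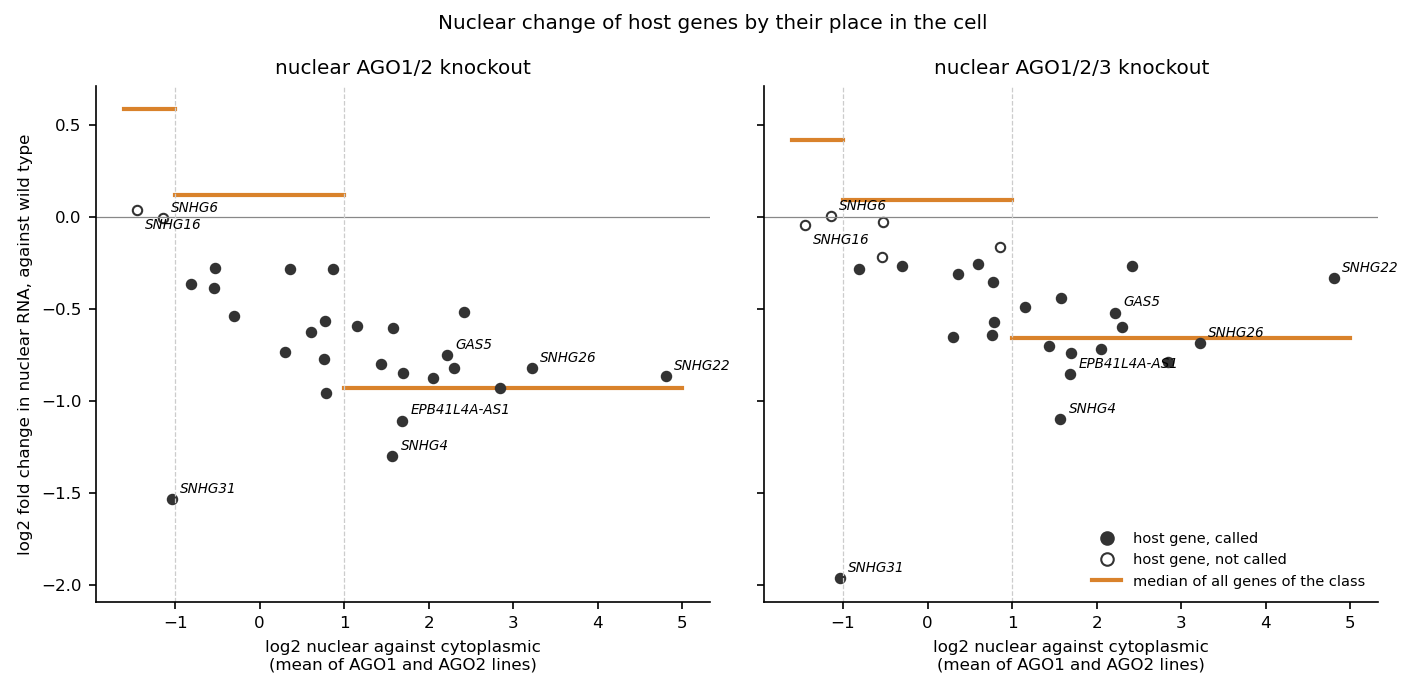
Log2 fold change in nuclear RNA against wild type (vertical axis) by log2 nuclear against cytoplasmic level, the mean of the AGO1 and AGO2 lines (horizontal axis), for the 27 tested host genes in the AGO1/2 (left) and AGO1/2/3 knockout (right). Filled points were called, open points were not, dashed lines stand at -1 and 1, and orange lines are the median of all genes of each class. The host genes in the middle class sat below its median of 0.12, and SNHG31 sat far below its own class. Long noncoding RNA genes of the middle class had a median of -0.35 in the AGO1/2 knockout. The classes rest on counts not scaled by transcript length.

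A pair of nuclear noncoding RNAs and a pair of messages used as fraction markers also differed among the nuclear libraries. MALAT1 averaged 3041 TPM in wild type, 1814 in the AGO1, 1775 in the AGO2, 1313 in the AGO1/2 and 1355 in the AGO1/2/3 knockout. NEAT1, the other nuclear RNA, averaged 127, 55.1, 113, 54.5 and 69.9 TPM in the same order, and in AGO2 knockout nuclei it was not called (-0.27, adjusted p = 0.34 by edgeR). Nuclear GAPDH averaged 1263, 1626, 1593, 2666 and 2018 TPM, and nuclear ACTB 78.0, 67.8, 52.5, 209 and 140, in the same order. The part of fraction purity in the nuclear falls of the host genes was not tested. Summed over all 31 members, wild-type nuclei held 2138 to 2556 TPM, AGO1/2 knockout nuclei 1636 to 1804 and AGO1/2/3 knockout nuclei 1556 to 1756, with no overlap, whereas AGO1 knockout nuclei held 2396 to 2696.

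The transcripts with a snoRNA in an exon bore on the size of the nuclear falls. Without them, a choice made after the data were seen, 17 members fell and 4 rose in AGO1/2 knockout nuclei (34.6% and 32.9% of all genes). EPB41L4A-AS1, SNHG4, SNHG10, SNHG19, SNHG21, SNHG22, SNHG25, SNHG26 and SNHG31 have no such transcript, so the step took nothing from them. All of these had fallen with every transcript included, so their falls say nothing about this choice. GAS5 was then at -0.35 (adjusted p = 0.117), SNHG1 at -0.40 (adjusted p = 0.0779) and ZFAS1 at -0.13, none of them called. The 4 that rose were SNHG7 (0.65), SNHG29 (0.48, adjusted p = 0.000239), SNHG16 (0.42) and SNHG6 (0.31, adjusted p = 0.0103).

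Shares of these transcripts fell within several hosts. The ratio of snoRNA-containing to other transcripts was lower in AGO1/2 knockout nuclei for 12 of 18 members, where 79.7% of the 74 genes tested were lower, and the medians were -0.52 and -0.94. SNHG6 nuclei had 12.9%, 12.8% and 13.3% of TPM on such transcripts in this knockout, below the 23.1% to 31.4% of wild type (-1.38, adjusted p = 1e-06 by limma). SNHG16 had 18.8%, 17.2% and 21.9%, below 38%, 39.3% and 36.8% (-1.36, adjusted p = 5.64e-08). SNHG29 had 37.4%, 35.5% and 36.1%, below 53.9% to 59.3% (-1.24, adjusted p = 7.18e-08). SNHG6 and SNHG16, whose gene totals were not called in these nuclei, had a lower share of snoRNA-containing transcripts there. GAS5 averaged 84.3% beside 87.8% in wild type, and its ratio was not called (-0.52, adjusted p = 0.0838). The ratio was lower in AGO1/2/3 knockout nuclei for 10 members (74.3% of genes; medians -0.28 and -0.64) and in AGO2 knockout nuclei for 4 (14.9%), SNHG7, SNHG6, SNHG29 and SNHG16. The count of 4 became 0 without wild-type passage 27, 2 without wild-type passage 28 or knockout passage 10, and 9 without wild-type passage 29, and the count of 10 became 6 without knockout passage 14. In AGO1 knockout nuclei 0 members and 0% of the 74 genes were called by limma, with 3 members at an unadjusted p under 0.05. The members' share of genes called was below that of the 74 host genes in both the AGO1/2 and the AGO1/2/3 knockout.

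Transcripts that GENCODE classes as retained-intron gave a related measure that does not ask for a snoRNA. For SNHG6 both measures rest on the same transcript, so its values here repeat those above. Such transcripts numbered 56 in 12 members, of which 11 could be tested. In wild type their ratio to the other transcripts was higher in nuclei than in cytoplasm for all 11, where 85.6% of 6902 genes were. In AGO1/2 knockout nuclei it was lower for 7 and higher for 1 (65.3% and 1.25% of 7050 genes; medians -0.51 and -0.96). SNHG17 averaged 80.6% of TPM on such transcripts in wild-type nuclei and 59.4% in this knockout (-1.5), and SNHG6 went from 28.2% to 13.0% (-1.38), with SNHG16 at -1.43. Of the 11, 6 were lower and 2 higher in AGO1/2/3 knockout nuclei (53.3% and 1.12%), led by SNHG6 (-1.20), SNHG11 (-1.06) and SNHG16 (-1.0), of which SNHG11 lost its call without knockout passage 14 or wild-type passages 28 or 29. In AGO2 knockout nuclei 2 were lower (15.9%), a count that became 0 or 1 without any of the 3 knockout libraries or wild-type passages 27 and 28. The total of 8 called in the AGO1/2/3 knockout became 5 without knockout passage 14 or wild-type passage 28. In AGO1 knockout nuclei 0 were called (1.12%, limma), with 1 at an unadjusted p under 0.05. In the cytoplasm 0 were called in the AGO1 (1.16%), AGO2 (1.5%) and AGO1/2/3 (5.06%) knockouts. The cytoplasmic ratio in the AGO1/2 knockout was higher for SNHG12 (1.07, beside 14% of genes) and lower for SNHG6 (-1.04, beside 1.65%), and 0 or 1 was left without any of the 3 knockout libraries or wild-type passages 27 and 28.

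In the AGO1 knockout line many host genes were higher in the nucleus than in wild type. Of the 27, 14 rose and 0 fell, where 14.3% of genes rose and 15.6% fell, with a median of 0.28 beside -0.03. SNHG25 had 16.3, 16.1 and 18.0 CPM against 9.65, 8.41 and 10.0 in wild type (0.84, SE 0.094, adjusted p = 2.29e-05). SNHG9 had 6.21, 5.88 and 5.64 against 3.98, 3.22 and 2.74 (0.83, SE 0.12, adjusted p = 0.000213). SNHG5, the SNORD50A and SNORD50B host, had 139, 130 and 130 against 101, 104 and 59.0 (0.59, SE 0.15, adjusted p = 0.00705). These 3 did not overlap with wild type, though the low SNHG5 value of passage 29 enters its mean. SNHG19 had 13.5, 14.8 and 15.4 against 10.6, 8.91 and 10.2 (0.56, SE 0.091, adjusted p = 0.000413). GAS5 rose to 458, 457 and 479 (0.28, SE 0.073, adjusted p = 0.00983) and EPB41L4A-AS1 to 69.6, 61.8 and 61.6 (0.39, SE 0.10, adjusted p = 0.00836). SNHG1 at 385, 370 and 379 was not called (0.17, adjusted p = 0.173), nor was ZFAS1 at 73.3, 72.0 and 73.1 (0.02, adjusted p = 0.828). GAS5, EPB41L4A-AS1 and SNHG25 were thus higher than wild type in this line and lower in the AGO1/2 line.

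The rise depended on the scale. On log2(TPM + 1), where the median of all genes fell by 0.17 in this comparison, 4 members were called higher and 1 lower. Of all 18919 genes, 362 were called higher and 5777 lower on that scale. Relative to the median of all genes, 26 members lay above it on counts and 25 on log2(TPM + 1). With snoRNA-containing transcripts left out, GAS5 turned from 0.28 to -0.25.

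Few members differed from wild type in the AGO2 knockout line, in the nucleus a smaller share than among all genes. In the nucleus 4 rose (SNHG8, SNHG9, SNHG19 and SNHG29) and 2 fell (SNHG26 and SNHG31), where 20.2% of genes rose and 19.9% fell. SNHG31 had 0.528, 0.714 and 0.489 CPM against 1.48, 1.30 and 0.809 in wild type (-1.06, SE 0.29, adjusted p = 0.00949). SNHG9 had 5.44, 5.00 and 5.52 (0.68, SE 0.12, adjusted p = 0.000563), SNHG26 had 17.5, 15.7 and 18.0 against 24.5, 27.2 and 21.6 (-0.52, SE 0.086, adjusted p = 0.000278), and SNHG19 had 11.9, 11.6 and 12.8 (0.29, SE 0.091, adjusted p = 0.0209). The SNHG31 call was lost without wild-type passage 27 (-0.84), and the SNHG19 call without wild-type passage 28 (0.24) or knockout passage 10 (0.25). GAS5 at 353, 347 and 354 overlapped wild type (-0.13, adjusted p = 0.185). With the median of all genes lower by 0.17 on log2(TPM + 1), 1 rose and 8 fell. Of all 18919 genes, 679 rose and 6311 fell on that scale. With length-scaled counts 7 members rose and 2 fell. Without wild-type passage 29, 5 rose and 4 fell.

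**Figure D5:**
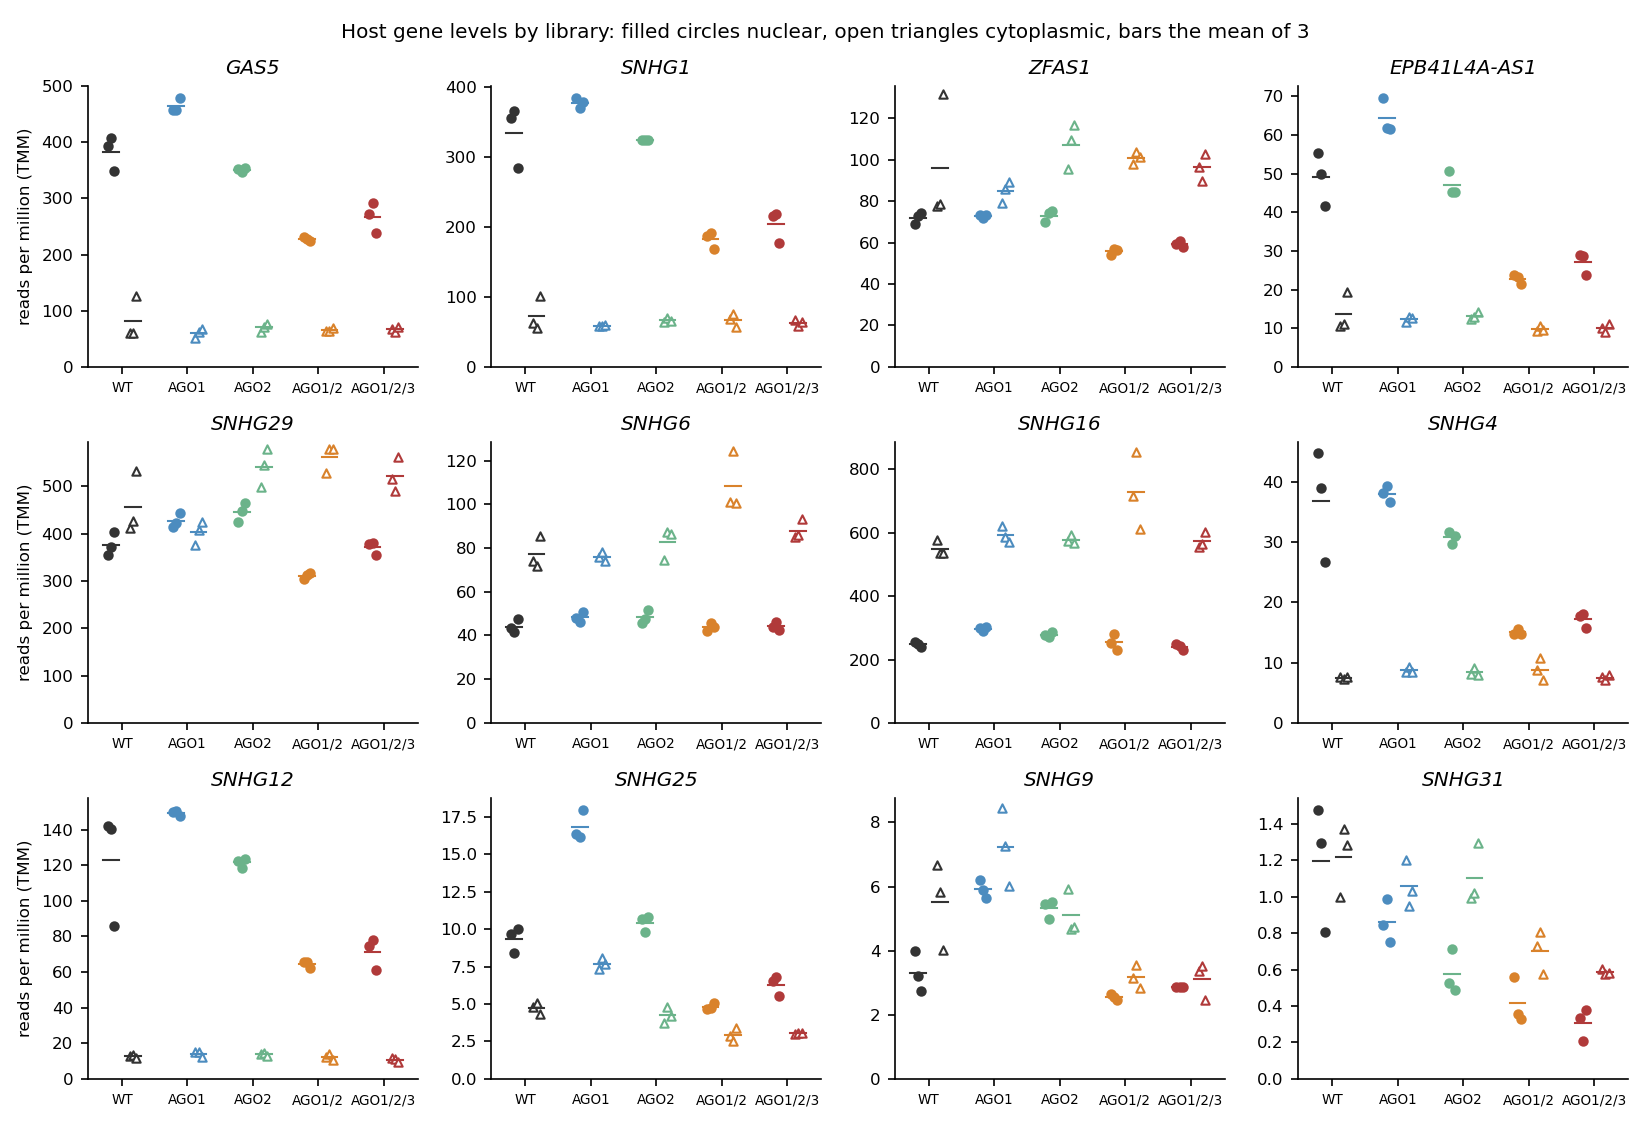
CPM (counts scaled to library size by TMM within each fraction, vertical axes from 0) of 12 host genes in each library, by genotype. Filled circles are nuclear libraries, open triangles cytoplasmic libraries and bars the mean of 3, and nuclear and cytoplasmic values were scaled separately. GAS5 nuclei sat between 224 and 232 in the AGO1/2 knockout and between 348 and 408 in wild type, while SNHG6 and SNHG16 nuclei overlapped wild type.

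In the cytoplasm fewer host genes changed. In the AGO1/2 knockout 6 rose and 5 fell (23.9% and 25.4% of 17605 genes), with a median of -0.03. SNHG6 had 101, 124 and 101 CPM against 74.2, 71.7 and 85.4 in wild type (0.49, SE 0.093, adjusted p = 0.000507), and SNHG16 had 717, 855 and 610 against 579, 535 and 536 (0.40, SE 0.093, adjusted p = 0.00235). Both hosts, not called in the nucleus, were higher here without overlap. SNHG26 had 2.40, 2.79 and 1.90 against 1.88, 1.55 and 1.22 (0.61, SE 0.20, adjusted p = 0.0177), and its call was lost without wild-type passage 29 or knockout passage 10 (0.47 each). SNHG5, SNHG7 and SNHG29 also rose, SNHG5 and SNHG29 with overlapping libraries, and SNHG29 lost its call without wild-type passages 27 or 28 or knockout passages 10 or 11 (0.23 to 0.28). SNHG31 had 0.728, 0.809 and 0.577 against 0.998, 1.37 and 1.28 (-0.79, SE 0.18, adjusted p = 0.00251), SNHG9 had 3.15, 3.54 and 2.84 against 6.67, 5.84 and 4.01 (-0.79, SE 0.19, adjusted p = 0.00361), and SNHG25 had 2.84, 2.56 and 3.39 against 4.77, 5.07 and 4.31 (-0.69, SE 0.12, adjusted p = 0.000323). SNHG8 also fell (-0.52), and EPB41L4A-AS1 fell by 0.48 (adjusted p = 0.0365), with overlapping libraries, but its change was -0.14 and not called without wild-type passage 29, and it also lost its call without knockout passages 9 (-0.43) or 11 (-0.46). The 5 members that fell here had also fallen in the nuclei of this line.

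GAS5 was not called in the cytoplasm of this knockout, at 63.9, 63.9 and 69.1 CPM against 60.2, 59.8 and 126 in wild type (-0.32, SE 0.22, adjusted p = 0.24). SNHG1 was at 68.9, 76.4 and 57.8 against 62.7, 55.6 and 102 (-0.12, adjusted p = 0.596), and ZFAS1 at 97.9, 104 and 101 against 77.7, 78.4 and 132 (0.07, adjusted p = 0.724). In all 3 the passage 29 library alone was the highest of the group and lay above the knockout. On log2(TPM + 1), where the median of all genes fell by 0.20, 0 members rose and 16 fell. Of all 17605 genes, 1355 rose and 8778 fell on that scale.

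The AGO1/2/3 knockout cytoplasm had 1 member higher, SNHG7 (0.24, adjusted p = 0.0487), and 4 lower (18.6% and 20% of genes). SNHG31 was at 0.605, 0.576 and 0.580 CPM (-1.05, SE 0.19, adjusted p = 0.00045), SNHG9 at 3.38, 3.51 and 2.45 (-0.82, SE 0.19, adjusted p = 0.00382) and SNHG25 at 3.03, 3.07 and 3.03 (-0.63, SE 0.12, adjusted p = 0.000876), all below wild type. SNHG17 was at 10.2, 8.40 and 9.10 against 13.7, 13.8 and 10.1 (-0.44, SE 0.16, adjusted p = 0.0408), where libraries overlapped and the call was lost without wild-type passages 27 or 28 or knockout passages 12 or 14 (-0.43 to -0.37). Without wild-type passage 29, 4 members were higher and 5 lower, and without knockout passage 14, 3 were called in all. The log2(TPM + 1) scale gave 0 rises and 15 falls, where 1427 of all genes rose and 6653 fell.

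The AGO1 knockout cytoplasm had 4 members higher and 0 lower (4.28% and 8.13% of genes). SNHG10 had 8.77, 7.20 and 6.63 CPM against 4.80, 4.40 and 1.93 (1.02, SE 0.25, adjusted p = 0.0138), SNHG25 had 7.36, 8.05 and 7.65 (0.70, SE 0.12, adjusted p = 0.00159), SNHG19 had 13.8, 17 and 16.2 (0.61, SE 0.12, adjusted p = 0.00346) and SNHG3 had 47.3, 53.2 and 49.9 (0.37, SE 0.10, adjusted p = 0.0275). All 4 had also risen in the nuclei of this line, and SNHG3 lost its cytoplasmic call without wild-type passage 29 (0.27) or knockout passages 7 (0.32) or 8 (0.37), as SNHG10 did without knockout passage 6 (0.90). By log2(TPM + 1), 2 rose and 2 fell, where 238 of all genes rose and 3005 fell. In the AGO2 knockout cytoplasm SNHG7 alone was higher (27.8, 25.4 and 27.6 against 22.2, 21.5 and 21.9 CPM; 0.30, SE 0.090, adjusted p = 0.0346) and 0 were lower (7.07% and 9% of genes). This call was lost without any of the 3 wild-type libraries or knockout passages 8 and 10 (0.28 to 0.31), and 0 members were left called except without passage 29, where 4 were. In the AGO2 knockout cytoplasm 0 rose and 3 fell on log2(TPM + 1), where 305 of all genes rose and 4785 fell.

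Whether the knockout effect itself differed between the fractions was tested with an interaction term. In the AGO1/2 knockout the nuclear effect was lower than the cytoplasmic effect for 18 members and higher for 0, where 17% and 19.6% of 20104 genes were called, with a median of -0.65 beside -0.04. SNHG4 differed by -1.61 (SE 0.19, adjusted p = 5.36e-07), its cytoplasm being at 8.74, 10.7 and 7.06 CPM against 7.65, 7.23 and 7.57 in wild type. SNHG26 differed by -1.51 (SE 0.20, adjusted p = 2.85e-06) and SNHG22 by -1.31 (SE 0.21, adjusted p = 2.96e-05). SNHG1 (-0.84, SE 0.20, adjusted p = 0.00173) and ZFAS1 (-0.52, SE 0.17, adjusted p = 0.0171) were called, and GAS5 was not (-0.51, SE 0.24, adjusted p = 0.0971). On log2(TPM + 1), where the median of all genes stood at 0.13, 2 were higher and 4 lower (7316 and 3701 of all genes). On length-scaled counts 1 member was higher and 11 lower.

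The AGO1/2/3 knockout had 10 members lower and 0 higher (11.1% and 11.7% of genes), led by SNHG4 (-1.19, SE 0.19, adjusted p = 7.49e-05), SNHG26 (-1.09, SE 0.21, adjusted p = 0.000417) and SNHG31 (-1.0, SE 0.35, adjusted p = 0.0424), whose call was lost when any of 8 of the 12 libraries was left out (-1.07 to -0.80). SNHG1 was called (-0.59, adjusted p = 0.0362) and GAS5 was not (-0.31, adjusted p = 0.391). On other settings the count of 10 became 4 on log2(TPM + 1), 3 on log2(TPM + 0.1), on length-scaled counts and with no filter, and 2 when only the groups compared were fitted. It became 16 without cytoplasmic wild-type passage 29, 5 without either passage 14 library of the knockout or nuclear wild-type passage 27, and 4 without cytoplasmic knockout passage 11 or nuclear wild-type passage 28. In the AGO1 knockout 0 members were called by edgeR (0.662% of genes), with 9 at an unadjusted p under 0.05 and 0 called by DESeq2, and 3 were called without cytoplasmic wild-type passage 27. In the AGO2 knockout 0 were called (5.76%), with 7 at an unadjusted p under 0.05 and 1 called by DESeq2, and 3 and 4 were called without the cytoplasmic and the nuclear wild-type passage 29. Nuclear and cytoplasmic libraries share passage numbers, and with these as a replicate block 3 members were called in the AGO1, 3 in the AGO2 and 16 in the AGO1/2/3 knockout, where SNHG31 lost its call. The ratio of retained-intron to other transcripts differed between fractions in the AGO1/2 knockout for 6 members, all lower, where 60.7% of 6902 genes were lower. It was 3 without cytoplasmic wild-type passage 29, nuclear wild-type passage 28 or nuclear knockout passage 9.

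Protein-coding genes that carry a snoRNA, many of them ribosomal protein and translation factor genes, were counted in the same comparisons. Of 206 tested of 236 such genes, 114 rose and 52 fell in AGO1/2 knockout nuclei, with a median of 0.27 (32.9% and 34.7% of all genes). In AGO1/2/3 knockout nuclei 93 rose and 51 fell, with a median of 0.17 (29.1% and 29.5% of all genes). None of the 27 members rose in either. In AGO1 knockout nuclei 85 of the protein-coding hosts rose and 25 fell (14.3% and 15.6% of all genes), with a median of 0.17 beside 0.28 for the members. In AGO2 knockout nuclei 73 rose and 32 fell (20.2% and 19.9% of all genes). The members are long noncoding RNA genes, and the sets were not matched for the fraction in which their RNA was found. The difference between these genes and the members was not tested.

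Genes for the proteins that bind snoRNAs changed in both directions in nuclei, where 32.9% of all genes rose and 34.7% fell in the AGO1/2 and 29.1% and 29.5% in the AGO1/2/3 knockout. Of the 4 box C/D core proteins, 2 rose and 1 fell in AGO1/2 knockout nuclei and 2 rose and 2 fell in AGO1/2/3 knockout nuclei. NOP58 (-0.35, adjusted p = 0.0154) and NOP56 (-0.35, adjusted p = 0.00494), scaffold proteins of the particle, fell in the AGO1/2/3 knockout, and SNU13, which recognises the kink formed by boxes C and D, rose (0.28, adjusted p = 0.0239). All 4 box H/ACA core genes rose in AGO1/2 knockout nuclei and 2 in AGO1/2/3 knockout nuclei, NOP10 (0.43, adjusted p = 0.000319) and NHP2 (0.38, adjusted p = 0.00109). Of 13 snoRNP assembly genes, 5 rose and 3 fell in the AGO1/2 and 3 rose and 5 fell in the AGO1/2/3 knockout nuclei, among them NAF1, an H/ACA assembly factor (-0.60, adjusted p = 1.65e-05), RUVBL2, an ATPase of the assembly machinery (0.55, adjusted p = 8.23e-06), and AQR, an intron-binding spliceosome helicase (-0.51, adjusted p = 7.23e-05). Of 18 nonsense-mediated decay genes, 10 rose and 6 fell and 5 rose and 5 fell, led in the AGO1/2/3 knockout by EIF4A3, a core protein of the exon junction complex (-0.73, adjusted p = 0.00125). In AGO1/2 knockout cytoplasm 0 genes of these 4 lists rose, and 3 of 4 box C/D core, 2 of 4 box H/ACA core, 11 of 13 assembly and 9 of 18 decay genes fell, where 23.9% of all genes rose and 25.4% fell.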

How the data were processed

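RNA-seq of nuclear and cytoplasmic fractions was analysed in 30 libraries of HCT116 cells, 3 per fraction and genotype, and 8 eCLIP samples were not used here. Per the labels, stranded libraries were made from ribosomal-RNA-depleted RNA. The submitters' processing notes name STAR 2.5.3a, Salmon 0.11.0, DESeq2 and hg38. The deposited tables give, for each transcript, an estimated count of reads (NumReads) and a TPM value, which the authors made with Salmon. Of the transcripts, 97.82% matched the GENCODE 44 annotation by identifier, and both values were summed per gene over 58425 genes. Reads on unmatched transcripts made up 2.23% to 4.01% of a library and were left out. Estimated counts were rounded before testing.

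The members and the other gene lists were chosen with earlier results of these data known. Values were given library by library for GAS5, ZFAS1, EPB41L4A-AS1, SNHG1 and the 5 members with the highest mean TPM, for up to 4 called members with the largest change in each knockout comparison, and for the 3 highest and 3 lowest in the fraction comparison. For differences between fractions and for shares, up to 3 were named, and for the other lists at most 3. SNHG12 in the AGO1/2/3 knockout falls under this rule, and other members were named after their values were seen.

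Genes passed filterByExpr (minimum count 10) and were tested with edgeR 4.0.16 (quasi-likelihood, TMM) in R 4.3.3, with nuclear, cytoplasmic and joint fits that each held all 5 genotypes. The threshold for a call was 0.05 on p-values adjusted by the Benjamini-Hochberg procedure. The share of TPM on retained-intron transcripts, and on those with an otherwise intronic snoRNA in an exon, was tested with limma 3.58.1 on the log2 ratio to the other transcripts (0.1 TPM added to both, mean gene TPM of at least 1). A snoRNA covered by an exon in more than 90% of the transcripts that span it was not counted as intronic. An exact permutation test of 3 against 3 libraries cannot give a p below 0.1, so single values were not tested that way. Alternatives were DESeq2 1.42.0, relative log expression size factors, length-scaled counts, limma on log2(TPM + 1) and log2(TPM + 0.1), other filters, a fit of only the groups compared, a replicate block and leaving out each library. Leaving out transcripts with a snoRNA in an exon, and the share of such transcripts, were chosen after seeing the data.

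Depth was 20431557 to 79731793 estimated reads per library, and the number of libraries limits the precision. Wild-type libraries were the shallowest in both fractions, at 20431557 to 26536692 in nuclei and 39476205 to 43281746 in cytoplasm. Knockout libraries held 31252459 to 54097984 in nuclei and 66451720 to 79731793 in cytoplasm, so depth and genotype go together. Changes of 0.5, 1 and 2 on the log2 scale were simulated. For the nuclear AGO1/2 comparison (18538 genes) 43.8%, 70.1% and 90.8% were recovered, and 4.96% of calls were false. For the AGO1/2 difference between fractions it was 22.7%, 56.9% and 81.8%, with 3.77% false. For the nuclear AGO1/2 retained-intron ratio it was 3.2%, 44.3% and 82.1%, with 7.37% false. Only 200 genes were changed in each simulation, where 12780 of 18919 were called in the real nuclear AGO1/2 comparison. snoRNA genes and start sequences came from RefSeq tables of the same build, and figures were drawn with matplotlib 3.10.9.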

Additional observations from a re-analysis of the deposited data

Results flagged for a closer look

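Effects that differed between the fractions stood out, each by the interaction test of edgeR across all genes. In the AGO1/2 knockout 18 host genes had a nuclear effect that differed from the cytoplasmic effect, all lower in the nucleus, but on log2(TPM + 1) 6 were called, 2 of them higher. The largest differences, nuclear minus cytoplasmic on the log2 scale, were -1.61 for SNHG4, -1.51 for SNHG26 and -1.31 for SNHG22. The ratio of retained-intron to other transcripts differed in the same way for 6 members by limma.

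In the AGO1/2/3 knockout 10 host genes differed, all lower in the nucleus, with -1.19 for SNHG4, -1.09 for SNHG26 and -1.0 for SNHG31, and 4 were called on log2(TPM + 1). SNHG31 had the fewest reads of the tested members, and its call was lost when any of 8 of the 12 libraries was left out and with the replicate block. SNHG4 shares its strand and part of its span with MATR3, and whether reads of that gene bear on its values was not tested. SNHG22 and SNHG26 had cytoplasmic levels near 1 and 2 CPM, so that their cytoplasmic changes rest on few reads.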

How the results depend on the processing

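In AGO1/2 and AGO1/2/3 knockout nuclei 0 members were called higher under each alternative except where snoRNA-containing transcripts were left out, though SNHG7 turned upward in the AGO1/2 knockout on TPM and length-scaled counts and SNHG3 (0.008) in the AGO1/2/3 knockout on length-scaled counts, none of them called. Leaving out single libraries gave 23 to 25 and 20 to 21 members. Each result was repeated under each alternative that applied to it. Of the repeats of the counts of members called, 448 stayed the same or close and 70 moved. This tally compared the total called in each comparison and took no account of direction. It does not show changes in the balance of rises and falls. Such changes are given above for AGO2 knockout nuclei and AGO1/2 knockout cytoplasm on TPM. Results for single members were tallied together with the counts for the retained-intron difference between fractions. Of these repeats 1408 stayed the same, and the 18 that moved were such counts. For single members, 128 repeats kept direction but were no longer called, and 12 reversed. The cause was not tested for any of them.

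On TPM with either pseudocount, 5 members were called in AGO1 knockout nuclei, 15 in AGO1/2/3 and 3 in AGO2 knockout cytoplasm, and 6 for the AGO1/2 difference between fractions. The AGO1/2/3 difference was 4 with log2(TPM + 1) and 3 with log2(TPM + 0.1), and the AGO2 difference 2 with log2(TPM + 1). SNHG16 (-0.031) and SNHG29 (-0.12) in AGO1/2 knockout cytoplasm and SNHG29 (-0.063) in AGO1 knockout nuclei reversed on both. EPB41L4A-AS1 in wild type (nuclear against cytoplasmic) reversed to -0.32 and -0.34 on TPM and to -1.01 on length-scaled counts, which also gave 3 for the AGO1/2/3 difference and 0 in AGO2 knockout cytoplasm.

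Without snoRNA-containing transcripts the counts were 9 in AGO1 knockout nuclei, 0 in AGO2 knockout cytoplasm and 11 for the AGO1/2 difference, and GAS5 reversed in AGO1 knockout nuclei (-0.25) and in the wild-type fractions (-1.77), as did SNHG29 in AGO1/2 knockout nuclei (0.48). Fitted with only the groups compared, counts were 2 (AGO1), 5 (AGO1/2) and 0 (AGO2) in cytoplasm, 2 for the AGO1/2/3 difference, 0 for cytoplasmic AGO1/2 and nuclear AGO2 retained-intron ratios, 5 for the nuclear AGO1/2/3 ratio, and 5 and 0 for the nuclear AGO1/2/3 and AGO2 ratios of snoRNA-containing transcripts. With no filter the AGO1 and AGO1/2/3 differences were 1 and 3, and DESeq2 gave 1 for the AGO2 difference. The retained-intron ratio gave 1 in AGO1 and in AGO1/2/3 knockout cytoplasm with 1 TPM added, and 1 in AGO1/2 knockout cytoplasm with no filter or a mean of at least 5 TPM.

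Leaving out single libraries gave 3 to 9 members in AGO1/2/3 knockout cytoplasm (3 without knockout passage 14, 9 without wild-type passage 29) and 0 to 4 in AGO2 knockout cytoplasm (0 without knockout passages 8 or 10 or wild-type passages 27 or 28, 4 without passage 29). Differences ranged from 0 to 3 (AGO1; 3 without cytoplasmic wild-type passage 27), 4 to 16 (AGO1/2/3) and 0 to 4 (AGO2; 1 without cytoplasmic knockout passage 8 or nuclear wild-type passage 27). Retained-intron ratios gave 0 to 2 (AGO1/2 cytoplasm), 5 to 7 (AGO1/2/3 nuclei) and 0 to 3 (AGO2 nuclei), and ratios of snoRNA-containing transcripts 6 to 11 (AGO1/2/3 nuclei) and 0 to 9 (AGO2 nuclei).

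With the passage number as a replicate block over both fractions, differences were called for 3 (AGO1), 3 (AGO2), 21 (AGO1/2) and 16 (AGO1/2/3) members, SNHG31 in the last losing its call at -1.0, and nuclear against cytoplasmic differences for 25 in wild type. Same-numbered libraries deviated together at -0.027 to 0.402, over 0.1 for 6 of 15 numbers. All 3 of wild type were among them (0.156, 0.148 and 0.402). So were AGO1/2 knockout passages 10 and 11 (0.128 and 0.212) and AGO1 knockout passage 6 (0.101). Most of these correlations were small, and they do not settle whether the libraries were paired.

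Depth limits SNHG31 and the 4 untested members most. Host gene RNA is not snoRNA, and the mature snoRNAs were not analysed here.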
